A study of Mus musculus with 97 samples.

Results

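Gm33888, Gm34733 and Gm46840 are 3 mouse genes that still carry provisional names. They were chosen from the 19962 genes of the deposited table because their probes gave strong counts that were a larger share of the library in hippocampus than in cortex, taken over all 12 groups. Their level and their difference between regions are therefore descriptions here, with no test. Effects of treatment and of genotype within a region were not used in the choice and were tested.

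The study used older mice in which the mouse Apoe gene is replaced by human APOE3 or APOE4, the alleles of the apolipoprotein E lipid carrier that differ in their link to Alzheimer's disease. Mice received DD (doxorubicin 3 mg/kg and docetaxel 10 mg/kg per week), DC (doxorubicin 3 mg/kg and cyclophosphamide 40 mg/kg per week) or the vehicle, a mixture of dimethyl sulfoxide and phosphate buffered saline, by injection into the peritoneum 2 times per week for 2 weeks. RNA was counted in brain sections of 8 µm with the GeoMx whole transcriptome probe panel, in which probes hybridise in the tissue and ultraviolet light frees their tags from a chosen region for sequencing. The comparisons ask whether combination chemotherapy acts on the brain and whether the APOE genotype alters that. Groups of 8 libraries each held APOE3 vehicle, APOE3 DC, APOE4 vehicle, APOE4 DD and APOE4 DC cortex, and the hippocampus of all 6 combinations of genotype and treatment. APOE3 DD cortex held 9, which gives 97 libraries in all. Both regimens contain doxorubicin, all mice carry a human APOE allele, and the labels name neither sex nor the animal behind a captured region.

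Symbols that begin with Gm are placeholders given to predicted mouse genes whose function has not been named. Keratin-associated proteins, the family whose genes surround 2 of the members, are small proteins that crosslink keratin filaments in the hair shaft and are not known as products of brain tissue. A long noncoding RNA is a transcript without a long open reading frame; the roles of most are unknown. GeoMx reads a gene through its probe, so a high count shows that the probe's tag was abundant and does not identify the transcript it bound. Probe sequences were not used here, and binding of a probe to a related transcript was not tested.

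RefSeq annotation of GRCm38.p6, the assembly that the submitters' mm10 denotes, matched all 3 members. Gm33888 lies at chr16:89129257-89133082 and Gm34733 at chr16:89226811-89227103, both on the plus strand and both annotated as protein coding. Gm46840 lies at chr4:3231182-3258873 on the plus strand, spans 27692 bases and is annotated as a long noncoding RNA with 2 transcripts. The promoter windows below are the 250 bases before each annotated start, from RefSeq. They are shown to set the chromosome 16 pair beside the chromosome 4 gene. Capitals mark TATAAA, the core of a TATA box, and GGGCGG, the core of a GC box.
Gm33888, chr16:89129007-89129256, plus strand: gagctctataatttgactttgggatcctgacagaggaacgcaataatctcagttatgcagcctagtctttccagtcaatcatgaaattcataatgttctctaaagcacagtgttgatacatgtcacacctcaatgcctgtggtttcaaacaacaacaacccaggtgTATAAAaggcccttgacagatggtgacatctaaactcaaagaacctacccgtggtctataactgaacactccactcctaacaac
Gm34733, chr16:89226561-89226810, plus strand: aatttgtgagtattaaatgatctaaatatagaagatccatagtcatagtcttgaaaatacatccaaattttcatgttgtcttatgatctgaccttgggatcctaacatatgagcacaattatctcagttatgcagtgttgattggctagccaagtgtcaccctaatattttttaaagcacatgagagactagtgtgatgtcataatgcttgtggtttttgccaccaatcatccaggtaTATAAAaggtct
Gm46840, chr4:3230932-3231181, plus strand: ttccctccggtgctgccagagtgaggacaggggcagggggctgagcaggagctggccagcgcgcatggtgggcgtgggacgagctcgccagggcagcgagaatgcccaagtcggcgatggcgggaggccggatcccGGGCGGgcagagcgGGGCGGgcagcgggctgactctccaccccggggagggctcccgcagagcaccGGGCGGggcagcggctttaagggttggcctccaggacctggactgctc

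The windows of Gm33888 and Gm34733 each held 1 TATAAA and no GGGCGG on either strand. The motif began 84 bases before the annotated start of Gm33888 and 12 bases before that of Gm34733. Among 32851 RefSeq promoter windows of the same 250 bases, 12.4% held TATAAA on either strand and 32.7% held GGGCGG. The window of Gm46840 held 3 GGGCGG and no TATAAA. Its GC content was 73.2%, higher than that of 94.3% of the promoter windows, against 41.6% for Gm33888, 34.4% for Gm34733 and a median of 52.4%. In pairwise alignment, Gm33888 and Gm34733 were identical at 77% of 165 aligned bases. To Gm46840 they were identical at 63.2% of 204 and 64.4% of 194 aligned bases. Bases set against gaps were left out of these counts. Unrelated windows were not aligned, so these values alone do not show likeness. A motif match is a description of the letters and not a binding site.

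The chromosome 16 pair was chosen for strong signal, so its level beside that of its gene cluster is a description. A stretch of 93728 bases separates the end of Gm33888 from the start of Gm34733 and holds 9 annotated genes, of which the 2 on the panel had medians of 0.864 and 0.913 times the negative probe. The negative probe is the panel's control for unspecific binding, so a value near 1 is background. The 12 measured neighbours within 200 kb of Gm33888 had medians from 0.739 to 1.08 times the negative probe, and none passed 2. All 30 rows with a Krtap symbol, the keratin-associated protein genes, lay between 0.821 and 0.997 times the negative probe. By comparison, the medians over all 97 libraries were 97.2 for Gm33888 and 18.6 for Gm34733.

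**Figure D1:**
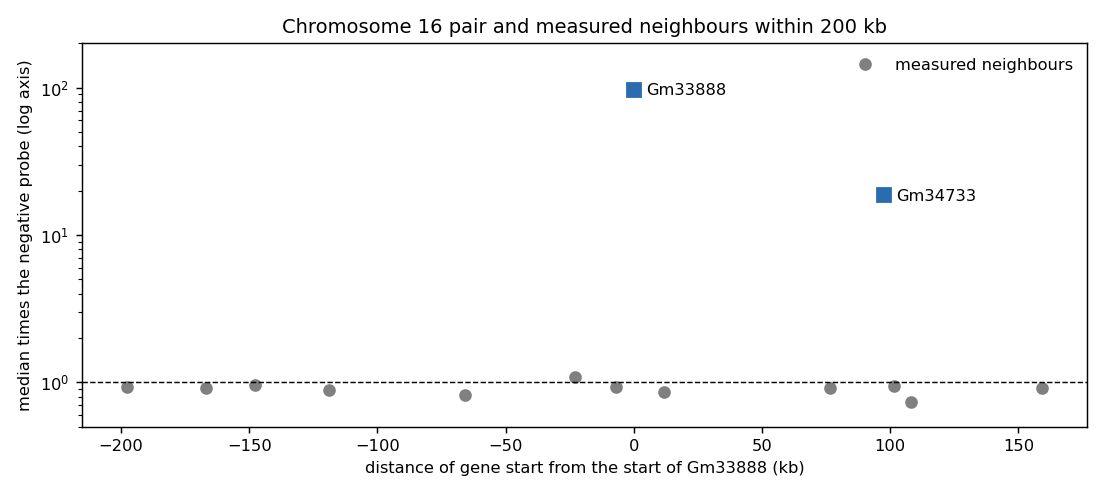
Median over 97 libraries of the ratio of each gene's count to the negative probe (log axis) against the distance of the gene's start from that of Gm33888 in kb. Grey points are the 12 measured neighbours within 200 kb, the dashed line is the level of the negative probe, and the blue squares are Gm33888 at 97.2 and Gm34733 at 18.6.

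The other promoter windows of the cluster were compared with those of the pair. Of these 35, 13 belong to genes measured on the panel. The windows of the 35 other promoters in the cluster were identical to that of Gm34733 at 66.7% to 93% of aligned bases, with a median of 80.3%. The closest, at 93% of 230 aligned bases, belongs to Gm34826, which starts 4.0 kb from the start of Gm34733 and had a median of 0.944 times the negative probe. To Gm33888 the same windows were identical at 70.4% to 81.4%, with a median of 74.5%. The closest measured one, 1110025L11Rik at 79.5% of 195 aligned bases, was at 0.821 times the negative probe. The 77% between Gm33888 and Gm34733 lies within both ranges, so that likeness is not particular to the pair. TATAAA on either strand was present in 30 of the 35 windows, or 85.7%. Of those 30, 11 belonged to measured genes, and the highest of them reached 0.997 times the negative probe. Gm46840 had 2 measured neighbours within 200 kb, Vmn1r2, a vomeronasal receptor gene, at 0.896 times the negative probe and Gm52720 at 0.924.

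Few genes of the panel gave a signal. Total counts ran from 21568 to 1850582 per library with a median of 44846, and 72 of 19962 genes had a median above 2 times the negative probe. After the filter on low counts, 57 genes were tested in cortex and 38 in hippocampus, with 37 in both. The negative probe had a median of 1.27 counts in APOE3 and 2.68 in APOE4 libraries and reached 93.1. It was 5 or more in 13 libraries, 6 of them among the 8 of APOE4 DC hippocampus. No defining marker of the labelled regions was tested, because none passed the filter: the 12 hippocampal markers had medians between 0.815 and 0.985 times the negative probe in hippocampus, and the 11 measured cortical markers reached at most 1.85 in cortex, for Slc17a7. The region labels were thus not checked by markers. The highest marker of glia, endothelium, choroid plexus or inhibitory neurons was Aldh1l1, of astrocytes, at 1.38 in cortex.

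Against this background the members were among the strongest probes. Gm33888 had between 16 and 992 counts and Gm46840 between 37 and 916, and both were among the 10 highest genes in 97 of 97 libraries. Gm34733 had between 2 and 202 counts and was among the 20 highest genes in 61 libraries and among the 10 highest in 25. Each member was above the negative probe in 97 of 97 libraries. By the median ratio to the negative probe, Gm33888 had rank 3 of 19962 genes at 97.2, Gm46840 rank 4 at 92.9 and Gm34733 rank 13 at 18.6. Probes bind with unequal efficiency, so this is an order of signals and not of transcripts. The table held 521 predicted genes, whose median was 0.922 times the negative probe, and 7 of them passed 2.

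Gm33888, of unknown product, was 84.5 times the negative probe in the median cortex library, with extremes of 16.7 and 159. In hippocampus the median was 133, with extremes of 3.99 and 297. The lowest hippocampal value came from an APOE4 DC library in which the negative probe was high. Relative to 1000 counts of the 37 genes tested in both regions, after TMM scaling, the lowest, median and highest values in APOE3 vehicle were 28.8, 50.2 and 75.3 in cortex and 107, 125 and 190 in hippocampus. In APOE3 DD they were 29.6, 35.8 and 82.7 in cortex and 78.9, 105 and 131 in hippocampus. In APOE3 DC they were 20.6, 30 and 51.2 in cortex and 34.6, 105 and 117 in hippocampus. Hippocampal libraries were higher without exception in APOE3 vehicle, and 1 or more fell among the cortical ones after DD and DC. In APOE4 vehicle the values were 34, 45.3 and 63 in cortex and 74.4, 105 and 133 in hippocampus. In APOE4 DD they were 26.2, 39 and 55.8 in cortex and 108, 118 and 137 in hippocampus. In APOE4 DC they were 32.1, 39.8 and 51.1 in cortex and 32.4, 91.4 and 122 in hippocampus, the group with the widest spread. In APOE4 the regions did not overlap with vehicle or DD and overlapped with DC.

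Gm34733, the second gene of the pair, also without a known product, reached 16.7 times the negative probe in the median cortex library, with extremes of 1.87 and 34.7, and 25.3 in the median hippocampus library, with extremes of 1.67 and 61.4. On the scale per 1000 tested counts, APOE3 vehicle had 5.14, 9.88 and 17 in cortex and 18.9, 27.2 and 41.1 in hippocampus as its lowest, median and highest values. APOE3 DD had 5.43, 6.82 and 11.3 in cortex and 13.2, 19.4 and 22.9 in hippocampus. All hippocampal libraries of these groups were above all cortical ones, as was also so after DC. APOE3 DC had 2.61, 5.06 and 7.43 in cortex, the lowest of all groups, and 9.4, 13.7 and 26.2 in hippocampus. APOE4 vehicle had 6.65, 10.6 and 15 in cortex and 13.1, 21.4 and 24 in hippocampus. There the regions overlapped slightly. APOE4 DD had 5.55, 7.8 and 12 in cortex and 15.6, 21.1 and 28.6 in hippocampus, with no overlap. APOE4 DC had 5.78, 7.31 and 14.1 in cortex and 13.6, 18.9 and 23.5 in hippocampus, with an overlap of less than 1 normalised count.

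Gm46840, the long noncoding RNA, stood at 86 times the negative probe in the median cortex library, with extremes of 18.4 and 178, and at 110 in the median hippocampus library, with extremes of 4.33 and 230. Per 1000 tested counts, its lowest, median and highest values in APOE3 vehicle were 29.4, 36.7 and 55.7 in cortex and 61.3, 92.7 and 110 in hippocampus. For APOE3 DD the values were 20.9, 36.5 and 68.9 in cortex and 53.2, 87.2 and 103 in hippocampus. The cortex of the 3 APOE3 groups was thus alike in its median, with 36.3 after DC, where the extremes were 26.4 and 68.8. In the hippocampus of APOE3 DC the values were 58.4, 94.5 and 118. For APOE4 vehicle they were 50.4, 60.9 and 85.1 in cortex and 97.8, 113 and 167 in hippocampus, the highest of the 6 groups in each region. For APOE4 DD they were 30, 43.2 and 50.8 in cortex and 74.3, 92.3 and 116 in hippocampus. These groups had no overlap between regions. For APOE4 DC they were 27.4, 44.1 and 62.4 in cortex and 35.2, 84.9 and 116 in hippocampus, with overlap.

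**Figure D2:**
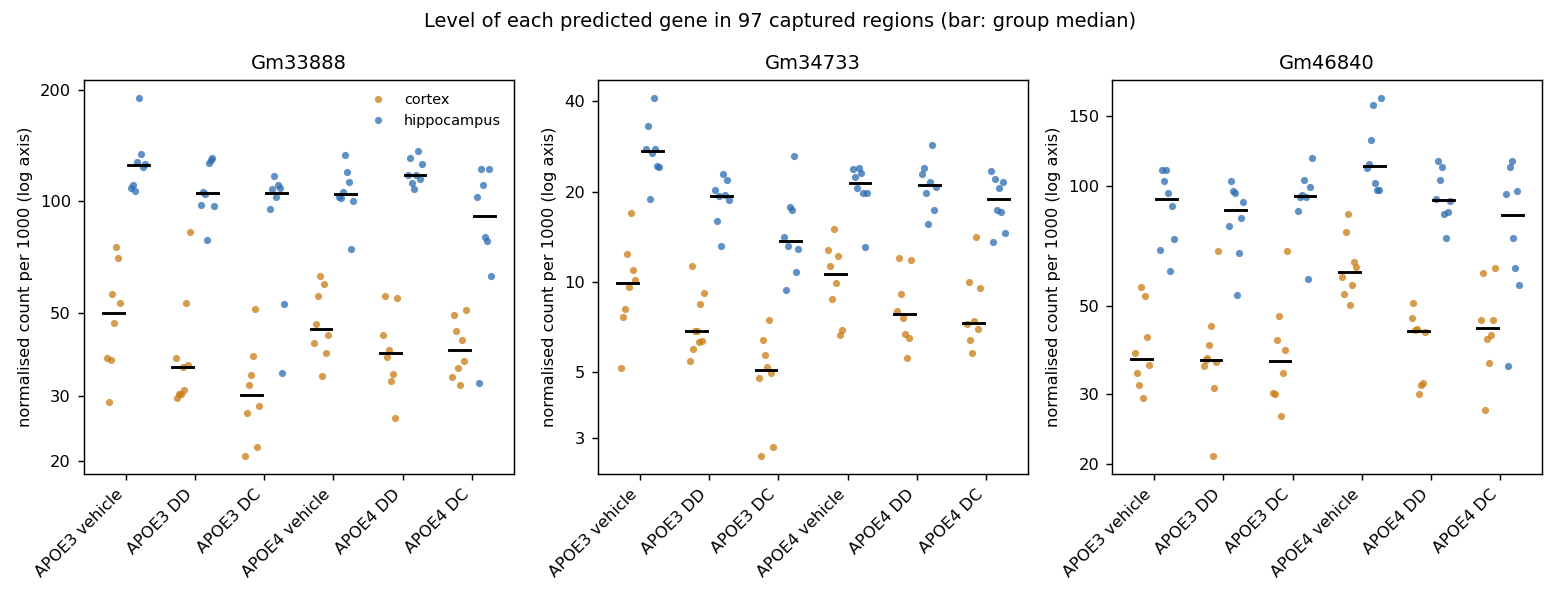
Normalised count per 1000 counts of the 37 genes tested in both regions (log axis) for each of the 97 libraries, by genotype and treatment; orange points are cortex, blue points hippocampus, and black bars group medians. The hippocampal median is above the cortical one in all 6 pairs for each of Gm33888, Gm34733 and Gm46840, and single libraries of the regions overlap in some pairs.

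Ordered by mean, the 6 hippocampal groups preceded the 6 cortical groups for each member, an order that the choice of genes favoured. For Gm33888 the order ran from 129 ± 26.7 (SD, n = 8) in APOE3 vehicle hippocampus to 31.6 ± 9.89 (SD, n = 8) in APOE3 DC cortex, and 10 of the 11 pairs of neighbours in it were closer than the larger of their SDs. The exception was the step of 38.1 between the regions. For Gm34733, 9 of the 11 neighbouring pairs were that close. At the low end APOE3 DC cortex, at 4.98 ± 1.65 (SD, n = 8), was 2.42 below the next group. At the high end APOE3 vehicle hippocampus, at 28 ± 6.67 (SD, n = 8), was 6.7 above the next, hardly more than its SD. For Gm46840, 9 of 11 were that close, and APOE4 vehicle was at the head of each region. In cortex it was at 63.5 ± 11.8 (SD, n = 8), 18.3 above the next group. In hippocampus it was at 123 ± 27.7 (SD, n = 8), and the step of 27.7 to the next group equalled its SD. Single libraries overlapped across each of these steps.

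The difference between regions, which the choice used, was of similar size for the 3 genes and is given as a description. On the log2 CPM scale of the 37 genes, it ran over the 6 combinations of genotype and treatment from 1.03 to 1.59 for Gm33888, from 0.98 to 1.52 for Gm34733 and from 0.79 to 1.27 for Gm46840. All hippocampal libraries were above all cortical libraries in 3 pairs for Gm33888, in 4 for Gm34733 and in 3 for Gm46840; over the 37 genes that share was 18.9% in APOE3 vehicle, 13.5% in APOE3 DD, 5.41% in APOE3 DC, 8.11% in APOE4 vehicle, 27% in APOE4 DD and 13.5% in APOE4 DC. By its mean of the 6 pairs, Gm33888 ranked 2 of 37 at 1.35, Gm34733 ranked 3 at 1.29 and Gm46840 ranked 10 at 1.09. Mtch2, a mitochondrial outer membrane protein and the gene with the most counts, ranked first at 1.40, and the genes nearest to Gm46840 were Xrn1, a cytoplasmic RNA exonuclease, at 1.09 and Olfr655, an olfactory receptor, at 1.08. The 3 other predicted genes tested in both regions were on the opposite side, Gm40755 at -0.94, Gm10265 at -0.98 and Gm52523 at -1.04.

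**Figure D3:**
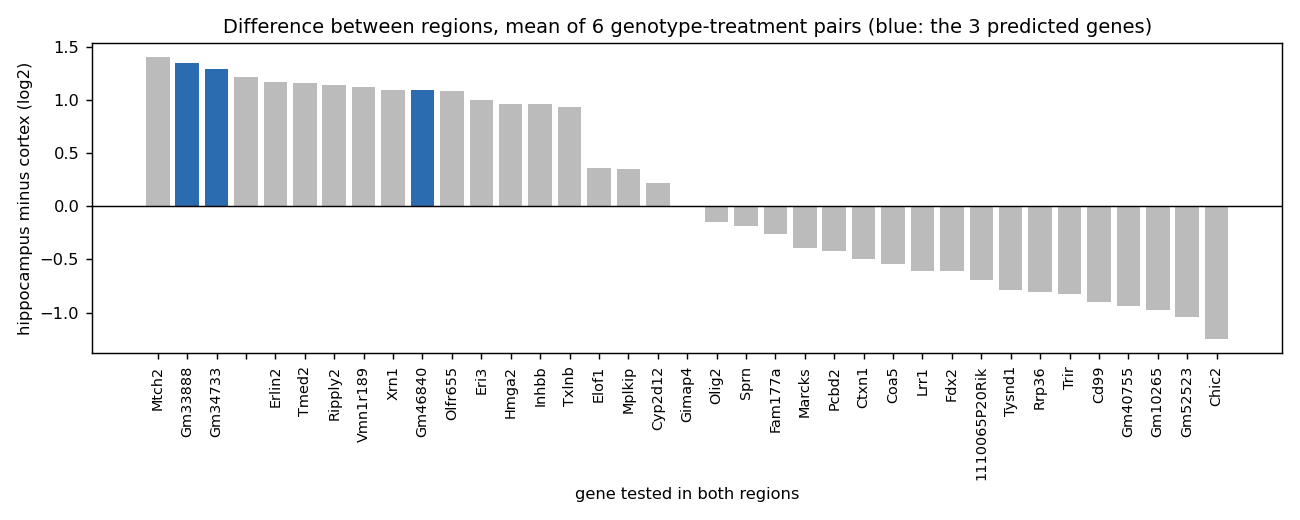
Difference of hippocampus minus cortex in mean log2 CPM, averaged over the 6 combinations of genotype and treatment, for the 37 genes tested in both regions, in descending order, with 1 bar left without a name. Blue bars are the 3 members, at 1.35, 1.29 and 1.09, and the 3 other predicted genes stand near the low end between -0.94 and -1.04.

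CPM of 37 genes after TMM scaling is relative to those genes and to the scaling, and is not a plain share. Mtch2 reached 2162 per 1000 in APOE3 vehicle hippocampus. As raw shares of the genes tested in each region, 57 in cortex and 38 in hippocampus, the regions were closer. The medians were 4.61% in cortex and 9.06% in hippocampus for Gm33888, 0.849% and 1.66% for Gm34733, and 5.02% and 7.93% for Gm46840. The part of the scaling was not tested. As ratios to the negative probe, the differences were smaller: Gm33888 was 0.89 higher on the log2 scale in APOE3 vehicle hippocampus and 0.47 higher in APOE4 vehicle, Gm34733 1.01 and 0.33, and Gm46840 0.67 and 0.25. In APOE4 DC the sign turned for all 3, to -0.87, -0.72 and -1.12. There the negative probe had a median of 10.9 counts in hippocampus and 4.26 in cortex. The part of the negative probe in these differences was not tested beyond the change of scale. In captured regions, fewer cells that express a gene and less RNA per cell cannot be told apart.

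Within groups, Gm33888 and Gm34733 had a higher correlation from library to library with each other than either had with Gm46840. After each group's mean was subtracted, their log2 CPM had a Pearson correlation of 0.58 over 97 libraries, 0.58 in cortex and 0.59 in hippocampus. The correlation with Gm46840 was 0.37 for Gm33888 and 0.17 for Gm34733. Of the 36 other genes tested in both regions, those most like Gm33888 were Erlin2, an endoplasmic reticulum membrane protein, at 0.61, then Gm34733 at 0.58 and Mtch2 at 0.38. Those most like Gm34733 were Erlin2 at 0.59, Gm33888 at 0.58 and Vmn1r189, a vomeronasal receptor, at 0.34, the latter at -0.03 within hippocampus. For Gm46840 the closest were Xrn1 at 0.67 and Hmga2, an architectural chromatin protein, at 0.61. All points of such a correlation share a library, its depth, its background and its scaling over few genes, so no p is given. The ratio of Gm33888 to Gm34733 counts had a median of 5.2 and ran from 2.38 to 11.5.

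**Figure D4:**
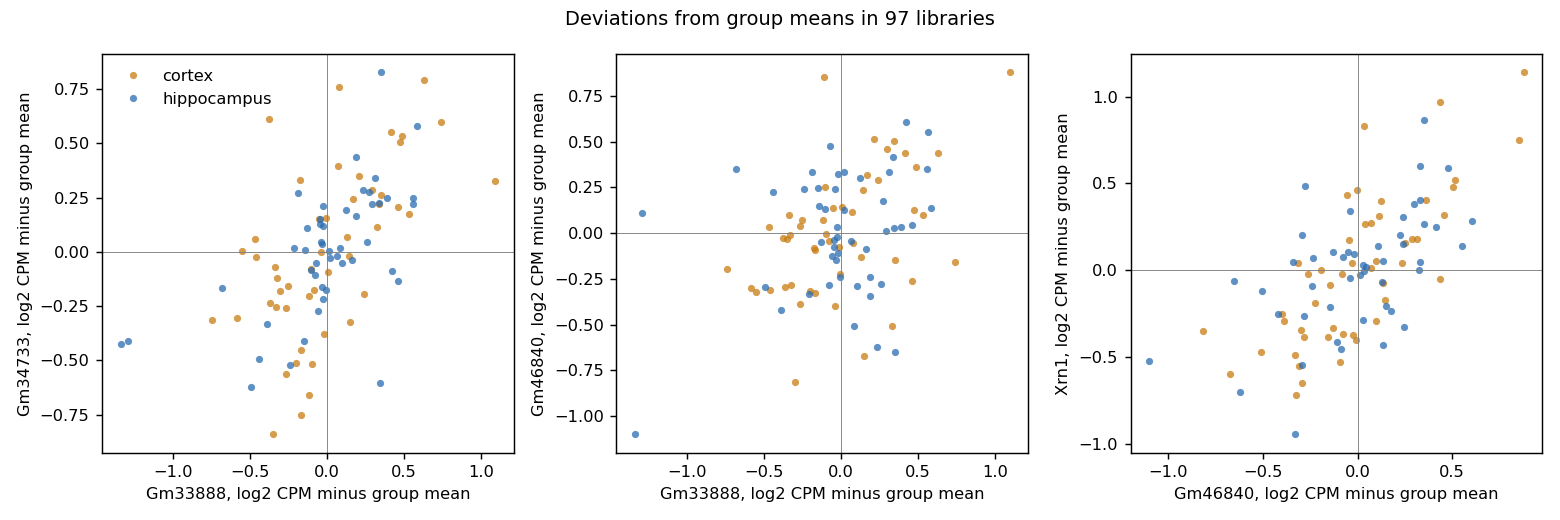
Log2 CPM of 1 gene minus its group mean against the same for another gene, 1 point per library (97), with cortex in orange and hippocampus in blue. The Pearson correlation is 0.58 for Gm33888 and Gm34733 on the left, 0.37 for Gm33888 and Gm46840 in the middle, and 0.67 for Gm46840 and Xrn1 on the right.

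For the tests within a region, counts were scaled with TMM per 1000 counts of the genes tested in that region, so the levels differ from those above. P-values are from edgeR's quasi-likelihood test with Benjamini-Hochberg adjustment over all genes tested in the region. Captured regions were the unit, and the labels do not say which share an animal; where some do, every p-value below is too small. Of 24 tests of DD or DC against vehicle for the members, 5 passed an adjusted p of 0.05, all of them lower after treatment. Over all genes in the same 8 comparisons, 9.47% of 380 tests passed in either direction and 5.79% with the lower value after treatment. DD and DC share their vehicle libraries. The genotype comparisons further down use the same libraries again, so calls that share a group are not independent.

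In APOE3 cortex the chromosome 16 pair fell after DC. Gm34733 had 6.01, 10.5 and 17.4 normalised counts as lowest, median and highest with vehicle and 2.75, 5.97 and 7.54 with DC. The mean was 10.9 ± 3.83 (SD, n = 8) against 5.54 ± 1.87 (SD, n = 8), and all 8 DC libraries were below the vehicle mean, although the groups overlapped. The edgeR log2 fold change was -0.94 (SE 0.24, adjusted p = 0.00392), a value 1.92-fold lower. Gm33888 had 22.7, 57 and 77.1 with vehicle and 23.5, 28.6 and 51.1 with DC, means of 55.4 ± 17.2 (SD, n = 8) and 35 ± 11.1 (SD, n = 8). Again all 8 DC libraries were below the vehicle mean, and 1 low vehicle library reached below them. The log2 fold change of Gm33888 was -0.62 (SE 0.19, edgeR adjusted p = 0.0169). Of the 57 genes tested, 8.77% were called lower in this comparison. Mtch2 was among them, at -1.18 (SE 0.23, edgeR adjusted p = 0.000137). It took a mean of 34.7% of the counts of the tested genes with vehicle and 18.8% with DC. With Mtch2 left out, Gm34733 was at -0.96 and Gm33888 at -0.64 (edgeR adjusted p = 0.00179 and 0.0065). Gm46840 did not pass, with a log2 fold change of -0.06 (95% interval -0.41 to 0.29). The call for Gm33888 was lost without APOE3 vehicle cortex replicate 6 (adjusted p = 0.0644), and with counts summed over neighbouring wells of a group (log2 fold change -0.85, adjusted p = 0.192). Both calls were lost as ratios to the negative probe, at -1.0 for Gm33888 and -1.35 for Gm34733 (limma adjusted p = 0.300 and 0.0518). The negative probe was 1.36-fold higher with DC than with vehicle (exact permutation p = 0.0272, adjusted p = 0.0725).

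In APOE3 hippocampus Gm34733 was lower after DC as well. Its lowest, median and highest normalised counts were 15.1, 20.8 and 33.7 with vehicle and 7.58, 11.7 and 21.3 with DC. The means were 22.4 ± 5.75 (SD, n = 8) and 12.7 ± 4.25 (SD, n = 8), and 8 of 8 DC libraries were below the vehicle mean. The log2 fold change was -0.75 (SE 0.20, edgeR adjusted p = 0.00439), beside 10.5% of 38 genes called lower. Mtch2 was called lower here too, at -1.11 (SE 0.28, edgeR adjusted p = 0.00439). With Mtch2 left out, Gm34733 was at -0.73 (edgeR adjusted p = 0.00963). Gm33888 was at -0.42 (SE 0.21, edgeR adjusted p = 0.187) and Gm46840 at 0.14 (SE 0.21, edgeR adjusted p = 0.776), so neither passed. Before scaling between libraries, Gm34733 took a median of 1.38% of the counts of the tested genes after DC against 1.51% with vehicle. Gm33888 took 9.24% against 7.35% and Gm46840 8.27% against 4.95%, both higher after DC, while Mtch2 took 38.2% against 56.9%. The part of the scaling in the call was not tested. As ratios to the negative probe the values were -1.72 for Gm34733 (limma adjusted p = 0.0014) and -1.39 for Gm33888, which then passed (limma adjusted p = 0.0158). Gm33888 also passed without the libraries whose negative probe reached 5 (-0.49, edgeR adjusted p = 0.028). The call for Gm34733 was lost without the filter on low counts (-1.66, edgeR adjusted p = 0.974). In this group the summed counts of the tested genes were lower as well, 1048 ± 384 (SD, n = 8) against 2913 ± 1253 (SD, n = 8) with vehicle (exact permutation p = 0.00109, adjusted p = 0.0087); their part in the result was not tested.

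DD in APOE3 mice gave no call. In cortex Gm34733 was at -0.49 (95% interval -0.90 to -0.08, edgeR adjusted p = 0.425) and Gm33888 at -0.34 (95% interval -0.69 to 0.02, edgeR adjusted p = 0.495). In hippocampus they were at -0.51 (edgeR adjusted p = 0.0886) and -0.19 (edgeR adjusted p = 0.692), and Gm34733 passed there in 5 of 16 fits that left out 1 library (lowest edgeR adjusted p = 0.0144). Gm46840 was at -0.06 in cortex and -0.03 in hippocampus. Of all genes tested, 3.51% were called in cortex and 2.63% in hippocampus.

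In APOE4 mice the member that passed against vehicle was Gm46840. In cortex its lowest, median and highest values were 59.2, 67.5 and 91.9 with vehicle and 35.5, 50.3 and 58.8 with DD, so the groups did not overlap, which held for 1.75% of the 57 genes in that direction. The means were 69.5 ± 9.78 (SD, n = 8) and 48.8 ± 8.43 (SD, n = 8), with a log2 fold change of -0.51 (SE 0.16, edgeR adjusted p = 0.0366), where 8.77% of genes were called lower. The call was lost without any 1 of 5 DD libraries, replicates 3 to 7, with adjusted p up to 0.0844, and with Mtch2 left out (-0.43, edgeR adjusted p = 0.0685). It was kept in 1 of 7 alternatives, DESeq2 (adjusted p = 0.0335), and with counts summed over runs of neighbouring wells it was -0.46 (edgeR adjusted p = 0.778). Mtch2 was called lower in the same comparison, at -0.71 (SE 0.22, edgeR adjusted p = 0.0366). After DC the cortical values of Gm46840 were 32.8, 47.2 and 70.2, and the log2 fold change of -0.48 (SE 0.16, edgeR adjusted p = 0.074) did not pass; 1.75% of genes were called in either direction. The same comparison passed with DESeq2 (-0.54, adjusted p = 0.0206), with upper-quartile scaling (-0.56, edgeR adjusted p = 0.0396) and in 12 of 16 fits that left out 1 library (lowest edgeR adjusted p = 0.00565). In hippocampus DD gave -0.36 (SE 0.20, edgeR adjusted p = 0.235), which did not pass, beside 5.26% of genes called.

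In APOE4 hippocampus Gm46840 was lower after DC, in a group with high background. It had 79.9, 96.3 and 142 normalised counts with vehicle and 25.8, 68.7 and 113 with DC, and 6 of 8 DC libraries were below the vehicle mean. The means were 105 ± 23.5 (SD, n = 8) and 71 ± 32.7 (SD, n = 8), with a log2 fold change of -0.57 (SE 0.20, edgeR adjusted p = 0.0377), beside 10.5% of 38 genes called lower. The negative probe was 5.15-fold higher with DC than with vehicle (exact permutation p = 0.00466, adjusted p = 0.0373). With every library whose negative probe reached 5 left out, so that 2 DC libraries remained, the log2 fold change was -0.00 (edgeR adjusted p = 0.994). As a ratio to the negative probe it was -2.13 (limma adjusted p = 8.9e-05). It was also lost without DC replicate 2, 5, 6 or 8 or vehicle replicate 7 or 8 (edgeR adjusted p up to 0.0932). Gm33888 and Gm34733 did not pass in any APOE4 comparison with vehicle on scaled counts, with log2 fold changes from -0.33 to 0.18. As ratios to the negative probe both were called lower after DC in APOE4 hippocampus, at -1.82 and -1.62 (limma adjusted p = 0.000386 and 0.000814). Without the libraries whose negative probe reached 5 they were at 0.24 and 0.04 there (edgeR adjusted p = 0.615 and 0.971).

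Genotype was compared within each treatment and region, and it coincides with the collection plate in the library names, so genotype and plate cannot be told apart. Of 18 such tests of the members, 3 passed, each with the higher value in APOE4. Over all genes in the same 6 comparisons, 22.5% of 285 tests passed in either direction and 12.6% with the higher value in APOE4. With vehicle, Gm46840 had 59.2, 67.5 and 91.9 in APOE4 cortex against 26.7, 40.7 and 67 in APOE3 cortex as lowest, median and highest. All 8 APOE4 libraries were above the APOE3 mean of 43.6 ± 13.2 (SD, n = 8), with a log2 difference of 0.67 (SE 0.17, edgeR adjusted p = 0.00231), where 14% of 57 genes were called higher and 21.1% in either direction. In vehicle hippocampus the values were 79.9, 96.3 and 142 in APOE4 and 46.2, 74.9 and 93 in APOE3, means of 105 ± 23.5 (SD, n = 8) and 71.5 ± 16.3 (SD, n = 8). Here 8 of 8 APOE4 libraries were above the APOE3 mean, and the log2 difference was 0.55 (SE 0.20, edgeR adjusted p = 0.0212), with 15.8% of 38 genes called higher and 39.5% in either direction. After DD the difference of Gm46840 was 0.23 in cortex and 0.22 in hippocampus, and after DC 0.26 and -0.15, none of which passed; of all genes tested, 21.1% were called after DD in cortex, 7.89% after DD in hippocampus, 24.6% after DC in cortex and 21.1% after DC in hippocampus. The APOE4 vehicle libraries in these comparisons are also those of the treatment calls for Gm46840. Both calls for Gm46840 with vehicle were lost with counts summed over neighbouring wells, at 0.63 in cortex and 0.52 in hippocampus (edgeR adjusted p = 0.283 and 0.436), and as ratios to the negative probe, at 0.90 and 0.48 (limma adjusted p = 0.193 and 0.631).

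Gm34733 passed in 1 of its 6 genotype comparisons, after DC in cortex. The APOE3 DC cortex libraries used there are those called lower than vehicle above. Its values there were 6.89, 8.08 and 15.1 in APOE4 and 2.75, 5.97 and 7.54 in APOE3, means of 9.29 ± 2.82 (SD, n = 8) and 5.54 ± 1.87 (SD, n = 8), and 8 of 8 APOE4 libraries were above the APOE3 mean. The log2 difference was 0.63 (SE 0.22, edgeR adjusted p = 0.0213), beside 12.3% of 57 genes called higher, and it was lost when any 1 of 9 libraries was left out, APOE4 DC replicates 2, 5, 6 and 8 and APOE3 DC replicates 1 to 4 and 8 (edgeR adjusted p up to 0.194). It was kept in 1 of 7 alternatives, with Mtch2 left out (0.56, edgeR adjusted p = 0.0316). Among the others it was 0.76 with counts summed over runs of wells (edgeR adjusted p = 0.117), 0.54 with DESeq2 (adjusted p = 0.0626), 0.58 with upper-quartile scaling (edgeR adjusted p = 0.0514) and 1.07 as a ratio to the negative probe (limma adjusted p = 0.152). After DC in hippocampus Gm34733 was at 0.28 (edgeR adjusted p = 0.294) and passed with upper-quartile scaling (0.53, edgeR adjusted p = 0.00719). With vehicle, Gm34733 differed by 0.02 in cortex (95% interval -0.38 to 0.41) and by -0.31 in hippocampus (95% interval -0.65 to 0.02), which passed in 4 of 16 fits that left out 1 library (lowest edgeR adjusted p = 0.0156). Gm33888 passed in none of its 6 genotype comparisons, with differences from -0.18 to 0.33.

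That a treatment passed in 1 genotype and not in the other was tested directly. None of the 12 interaction tests of the members, the log2 effect in APOE4 minus that in APOE3, passed. For DC in hippocampus the interaction was -0.71 for Gm46840 (SE 0.29, edgeR adjusted p = 0.0913) and 0.59 for Gm34733 (SE 0.25, edgeR adjusted p = 0.113), and 5.26% of 38 genes were called there. That of Gm46840 passed with upper-quartile scaling (-0.93, edgeR adjusted p = 0.0285) and in 4 of 32 fits that left out 1 library (lowest edgeR adjusted p = 0.0198), and was -0.10 without the libraries whose negative probe reached 5 (edgeR adjusted p = 0.827). That of Gm34733 passed in 2 of the 32 fits (lowest edgeR adjusted p = 0.0404). In cortex it was -0.41 for Gm46840 (edgeR adjusted p = 0.317) and 0.62 for Gm34733 (edgeR adjusted p = 0.296), where 3.51% of 57 genes were called. For DD the interactions ran from -0.44 to 0.54, and 0% of the genes tested were called in either region. Between the regimens, which differ in docetaxel against cyclophosphamide, none of 12 tests of DD minus DC passed, with log2 differences from -0.17 to 0.45 and a smallest adjusted p of 0.172. In that comparison 10.5% of genes were called in APOE4 hippocampus and 0% elsewhere. The widest 95% interval among them, for Gm34733 in APOE3 cortex, ran from 0.01 to 0.90.

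**Figure D5:**
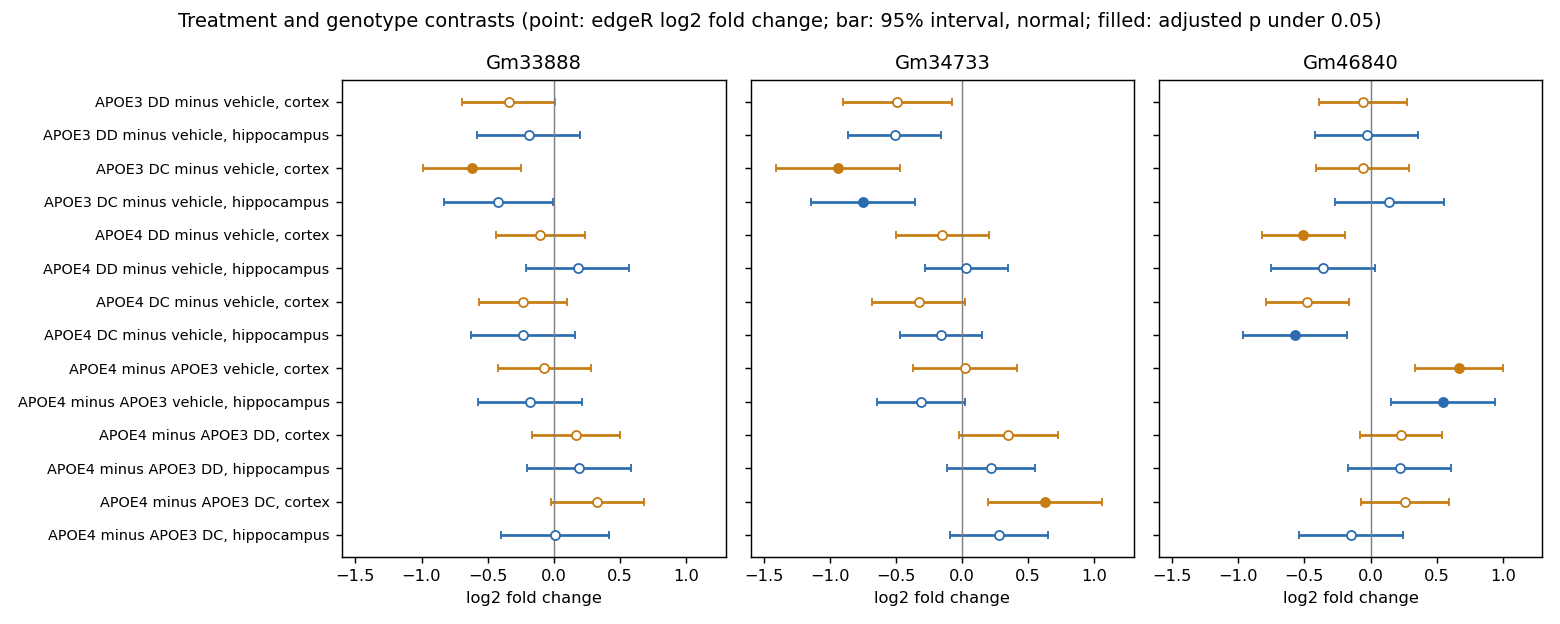
EdgeR log2 fold change of each member in the 14 comparisons of treatment with vehicle and of APOE4 with APOE3, with bars for normal 95% intervals; orange is cortex, blue hippocampus, and filled points have an adjusted p under 0.05. Filled points of Gm33888 and Gm34733 lie below 0 for APOE3 DC, at -0.62, -0.94 and -0.75, that of Gm34733 for APOE4 against APOE3 DC cortex lies at 0.63, and those of Gm46840 lie below 0 for APOE4 treatment and above 0 for APOE4 vehicle against APOE3. Comparisons that share a group are not independent.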

How the data were processed

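GeoMx whole transcriptome counts were analysed in 97 captured regions. The authors deposited expected counts for each probe target without scaling, whole in all but 4 rows, with a lowest value of 1 in 94 libraries. The submitters' processing notes name mm10; the counting software is not given in the sources used here. Counts were rounded. Each region was fitted with edgeR 4.0.16 in R 4.3.3 over its 6 groups of genotype and treatment (TMM, filterByExpr with a minimum count of 10, quasi-likelihood F test, Benjamini-Hochberg over the genes tested). Log2 CPM used a prior count of 2. The fits were tested on simulated data with known changes and independent libraries. They called 42.5% of 1.5-fold changes in cortex and 40% in hippocampus, and 80% and 93.3% of 2-fold changes. Of unchanged genes they called 1.17% and 1.61%. A test that did not pass therefore does not exclude a 1.5-fold change. The simulation covered APOE3 DD against vehicle, with changes in both directions and 1 mean composition for all groups. It does not cover regions that share an animal, a change in a gene as dominant as Mtch2, or a high negative probe. The rates may differ there. Negative probe and summed counts were compared by two-sided exact permutation tests. Promoter windows were aligned with Biopython 1.88.

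Alternatives were upper-quartile scaling, the ratio to the negative probe with limma 3.58.1, DESeq2 1.42.0, no filter, Mtch2 left out, counts summed over runs of wells, libraries with a negative probe of 5 or more left out, and each library left out. A run of wells is a set of libraries of 1 group that follow each other on the plate; 48 of 49 runs held 2. Replicate numbers name libraries in accession order and pair nothing. No libraries were identical (0 pairs). The depth per library is given with the results.

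The members and gene lists were chosen with earlier results of these data known. Named genes were the members, for each the 3 genes most correlated within groups (1 of them is not reported here), predicted genes tested in both regions, Mtch2, and the nearest genes in the order of regional difference. Marker lists covered cortex, hippocampus, astrocytes, oligodendrocytes, microglia, endothelium, choroid plexus and inhibitory neurons.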

Additional observations from a re-analysis of the deposited data

Results flagged for a closer look

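In each group of 8 or 9 libraries the highest or lowest log2 normalised count was set against the others. The measure was its gap relative to the group's range (Dixon's 95% value). The values below are printed without the log, and gaps on that scale were not tested. Of 36 such tests, 6 stood apart, where chance alone gives about 1 in 20. Gm33888 was at 22.7 in APOE3 vehicle cortex replicate 2, below 43.2 to 77.1 in the others. It was at 156 in APOE3 vehicle hippocampus replicate 5, above 84.6 to 106, and at 29.1 in APOE4 DD cortex replicate 7, below 45.4 to 62.6. Gm34733 was at 11.4 in APOE4 vehicle hippocampus replicate 7, below 16 to 20.6. Gm46840 was at 47.6 in APOE3 DC hippocampus replicate 6, below 75.8 to 100, and at 91.9 in APOE4 vehicle cortex replicate 4, above 59.2 to 71.1. No interaction of genotype and treatment passed its test.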

How the results depend on the processing

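Each call on a member was lost under at least 1 alternative, that for Gm34733 in APOE3 DC hippocampus only without the filter. Values are log2 fold changes, and where a call was lost or a sign turned the cause was not tested. With DESeq2, calls lost were APOE4 versus APOE3 DC cortex (Gm34733 0.54). Gained were APOE4 DC versus vehicle cortex (Gm46840 -0.54). Signs turned for APOE4 versus APOE3 vehicle cortex (Gm34733 -0.07), APOE4 DD versus vehicle hippocampus (Gm34733 -0.02), APOE4 versus APOE3 DC hippocampus (Gm33888 -0.01). With Mtch2 left out, calls lost were APOE4 DD versus vehicle cortex (Gm46840 -0.43), APOE4 DC versus vehicle hippocampus (Gm46840 -0.49). Signs turned for APOE4 versus APOE3 vehicle cortex (Gm34733 -0.11), APOE3 DD versus vehicle hippocampus (Gm46840 0.04). With counts summed over runs of wells, calls lost were APOE3 DC versus vehicle cortex (Gm33888 -0.85), APOE4 DD versus vehicle cortex (Gm46840 -0.46), APOE4 versus APOE3 vehicle cortex (Gm46840 0.63), APOE4 versus APOE3 DC cortex (Gm34733 0.76), APOE4 DC versus vehicle hippocampus (Gm46840 -0.86), APOE4 versus APOE3 vehicle hippocampus (Gm46840 0.52). Signs turned for APOE4 versus APOE3 vehicle cortex (Gm34733 -0.04), APOE3 DC versus vehicle hippocampus (Gm46840 -0.15), APOE4 versus APOE3 DC hippocampus (Gm33888 -0.00). Without the filter, calls lost were APOE3 DC versus vehicle cortex (Gm34733 -1.15, Gm33888 -0.78), APOE4 DD versus vehicle cortex (Gm46840 -0.53), APOE4 versus APOE3 vehicle cortex (Gm46840 1.05), APOE4 versus APOE3 DC cortex (Gm34733 1.11), APOE3 DC versus vehicle hippocampus (Gm34733 -1.66), APOE4 DC versus vehicle hippocampus (Gm46840 -0.98), APOE4 versus APOE3 vehicle hippocampus (Gm46840 0.46). Signs turned for APOE3 DD versus vehicle cortex (Gm46840 0.22, Gm33888 0.02), APOE4 versus APOE3 vehicle cortex (Gm33888 0.34), APOE3 DC versus vehicle hippocampus (Gm46840 -0.82), APOE4 versus APOE3 DC hippocampus (Gm46840 0.30). As ratios to the negative probe in limma, calls lost were APOE3 DC versus vehicle cortex (Gm34733 -1.35, Gm33888 -1.0), APOE4 DD versus vehicle cortex (Gm46840 -0.60), APOE4 versus APOE3 vehicle cortex (Gm46840 0.90), APOE4 versus APOE3 DC cortex (Gm34733 1.07), APOE4 versus APOE3 vehicle hippocampus (Gm46840 0.48). Gained were APOE3 DC versus vehicle hippocampus (Gm33888 -1.39), APOE4 DC versus vehicle hippocampus (Gm34733 -1.62, Gm33888 -1.82). Signs turned for APOE3 DD versus vehicle cortex (Gm46840 0.16), APOE4 versus APOE3 vehicle cortex (Gm33888 0.17), APOE3 DC versus vehicle hippocampus (Gm46840 -0.73), APOE4 versus APOE3 DC hippocampus (Gm34733 -0.30, Gm33888 -0.68), interaction DC hippocampus (Gm33888 -0.43). With upper-quartile scaling, calls lost were APOE3 DC versus vehicle cortex (Gm33888 -0.55), APOE4 DD versus vehicle cortex (Gm46840 -0.55), APOE4 versus APOE3 DC cortex (Gm34733 0.58). Gained were APOE4 DC versus vehicle cortex (Gm46840 -0.56), APOE4 versus APOE3 DC hippocampus (Gm34733 0.53), interaction DC hippocampus (Gm46840 -0.93). Signs turned for APOE3 DD versus vehicle cortex (Gm46840 0.03), APOE3 DC versus vehicle cortex (Gm46840 0.05), APOE4 versus APOE3 vehicle cortex (Gm33888 0.01), APOE3 DD versus vehicle hippocampus (Gm46840 0.24, Gm33888 0.03), APOE4 versus APOE3 vehicle hippocampus (Gm34733 0.10, Gm33888 0.23), APOE4 versus APOE3 DC hippocampus (Gm46840 0.03), interaction DC hippocampus (Gm33888 -0.05). Without libraries whose negative probe was 5 or more, calls lost were APOE4 DD versus vehicle cortex (Gm46840 -0.45), APOE4 versus APOE3 DC cortex (Gm34733 0.51), APOE4 DC versus vehicle hippocampus (Gm46840 -0.00). Gained were APOE3 DC versus vehicle hippocampus (Gm33888 -0.49). Signs turned for APOE4 versus APOE3 vehicle cortex (Gm34733 -0.04), APOE3 DD versus vehicle hippocampus (Gm46840 0.00), APOE4 DD versus vehicle hippocampus (Gm34733 -0.06), APOE4 DC versus vehicle hippocampus (Gm34733 0.04, Gm33888 0.24), APOE4 versus APOE3 DC hippocampus (Gm46840 0.50). Members called between DD and DC in hippocampus went from 0 to 3 as ratios to the negative probe. On that scale the difference of hippocampus minus cortex moved to 0.59, 0.50, 0.47, 1.14 and -0.87 for Gm33888 (APOE3 DD, APOE3 DC, APOE4 vehicle, APOE4 DD, APOE4 DC), to 0.48, 0.64, 0.33 and -0.72 for Gm34733 (the same without APOE4 DD) and to 0.67, 0.25, 0.30, 0.25, 0.80 and -1.12 for Gm46840 (APOE3 vehicle first). Leaving out each library gave ranges for APOE4 DD versus vehicle in cortex of -0.71 to -0.44 for Gm46840, and for APOE4 DC versus vehicle of -0.53 to -0.27 for Gm34733 and -0.66 to -0.42 for Gm46840 in cortex and of -0.69 to -0.44 for Gm46840 in hippocampus. They were -0.80 to -0.54 for Gm33888 in APOE3 DC versus vehicle cortex and 0.41 to 0.72 for Gm34733 in APOE4 versus APOE3 DC cortex. With vehicle, APOE4 versus APOE3 ran from -0.22 to 0.13 for Gm34733 and -0.30 to 0.02 for Gm33888 in cortex and from -0.44 to -0.19 for Gm34733 in hippocampus. After DC in hippocampus it ran from -0.21 to 0.19 for Gm33888. DD versus vehicle ran from -0.18 to 0.04 for Gm46840 in APOE3 cortex, -0.57 to -0.38 for Gm34733 and -0.09 to 0.06 for Gm46840 in APOE3 hippocampus, and -0.11 to 0.08 for Gm34733 in APOE4 hippocampus. The DC interaction in hippocampus ran from 0.44 to 0.77 for Gm34733, -0.92 to -0.61 for Gm46840 and -0.03 to 0.28 for Gm33888. The calls for Gm34733 in APOE3 DC, in both regions, and for Gm46840 between genotypes with vehicle held without each library. Summed over the 22 comparisons, gene calls numbered 108, against 460 without the filter and between 73 and 109 under the other alternatives. No paired analysis was possible because the labels give no replicate numbers, and those used here only name libraries. Low counts limit Gm34733 most, which had as few as 2 counts in a library.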

Other observations

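Among the other predicted genes tested in both regions, 2 were called between genotypes. Gm10265 and Gm52523 had medians of 109 and 58.3 times the negative probe and were called lower in APOE4 than in APOE3 hippocampus, by edgeR log2 differences of -0.45 (SE 0.15, adjusted p = 0.0118) and -0.41 (SE 0.11, adjusted p = 0.00227) with vehicle and of -0.84 (SE 0.15, adjusted p = 9.28e-06) and -0.83 (SE 0.11, adjusted p = 3.35e-08) after DC. In APOE4 hippocampus both were higher after DD than after DC, by 0.61 (SE 0.14, adjusted p = 0.00148) and 0.53 (SE 0.10, adjusted p = 0.00021). Of the 38 genes tested in hippocampus, 39.5% were called between genotypes with vehicle and 21.1% after DC. Between DD and DC in APOE4 the share was 10.5%. The negative probe was 5 or more in 6 of the 8 APOE4 DC hippocampus libraries. The alternatives were not examined for these genes. Gm40755, at 11.4 times the negative probe, passed in no comparison. These p-values are too small where captured regions share an animal, and genotype coincides with the plate.

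The share of raw counts, before scaling between libraries, gave another reading of DC in hippocampus, for APOE3 above and for APOE4 here. In APOE4 DC hippocampus Gm34733 took a median of 2.05% of the counts of the tested genes against 1.79% with vehicle. Gm33888 took 9.36% against 9.44%, and Gm46840 8.43% against 10.1%. In APOE3 cortex the medians after DC were 0.629% against 0.879% with vehicle for Gm34733, 3.23% against 4.82% for Gm33888 and 4.01% against 3.6% for Gm46840.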
